A study of Mus musculus with 78 samples.

Results

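The mitochondrial ribosomal protein genes were the 78 protein-coding genes whose symbol was Mrpl or Mrps followed by a number, out of 55401 genes in the count tables, 21951 of them protein-coding. By symbol, 49 genes were assigned to the large subunit (Mrpl) and 29 to the small subunit (Mrps). A ZFP143 binding peak overlapped the 2 kb around an annotated transcript start at 22 members, 17 of the large and 5 of the small subunit, and 56 members had none. The members were chosen by symbol and then divided by binding.

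Mitochondria keep their own ribosome. Its rRNAs are made from mitochondrial DNA, but all of its proteins are encoded in the nucleus, made in the cytosol and imported, so that mitochondrial and nuclear genes have to supply parts of one particle. It translates the few mitochondrially encoded subunits of the respiratory chain and the ATP synthase. ZFP143 is a zinc finger transcription factor that binds near promoters, in large part through a sequence that begins ACTACA and continues with CCCA.

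The study used mouse embryonic stem cells (mESCs) of the E14TG2a line (strain 129/Ola) in which both copies of Zfp143 carry an FKBP-2xHA-P2A-GFP degron, a tag through which the compound dTAG-V1 directs the protein to degradation. All groups carried the tag, and the lines were picked as single-cell clones, which limits the results to the lines picked. Cells were grown in 2i/LIF medium, and depleted cells received 500 nM dTAG-V1 while controls received DMSO. TT-seq, which isolates RNA labelled with 4-thiouridine (4sU, 2 mM) in the last 10 min before harvest, was done in DMSO cells and in cells given dTAG-V1 for 2, 6 or 24 h. RNA-seq of polyadenylated RNA was done in DMSO cells and in cells given dTAG-V1 for 24, 48 or 72 h. A separate set (the RA set) was taken after 24 h of DMSO or dTAG-V1, and after a further 24 h in N2B27 medium with retinoic acid (RA), with DMSO or dTAG-V1 kept on. In that set RA, the change of medium and the longer depletion cannot be told apart. Each of these groups had 2 libraries, so that every count table had 8. ZFP143 binding was a list of 3189 peaks from ChIP-seq against the HA tag. That ChIP-seq had no replicate library, so the division by binding and the enrichment values come from an unreplicated experiment.

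Library totals were 9721568 to 16532077 counts in TT-seq, 10261851 to 15316700 in the RNA-seq time course and 13890761 to 27089033 in the RA set. The summed level of 6 stem cell markers (Pou5f1, Nanog, Sox2, Zfp42, Esrrb and Klf4) was 4126 and 4200 CPM (counts scaled to the TMM-adjusted size of the library) in DMSO, 3423 and 3455 CPM at 24 h, 2959 and 3020 CPM at 48 h and 2749 and 2771 CPM at 72 h in RNA-seq. In the RA set it was 4956 and 5239 CPM in DMSO, 4425 and 4435 CPM in dTAG-V1 cells, 587 and 881 CPM in DMSO cells after RA and 1048 and 1264 CPM in dTAG-V1 cells after RA. The sum of 4 extraembryonic endoderm markers (Gata4, Gata6, Sox17 and Pdgfra) was 6.06 and 6.49 CPM in DMSO, 11.0 and 10.0 CPM at 24 h and 13 to 16.1 CPM at 48 and 72 h in RNA-seq. In TT-seq it was 12.4 and 9.22 CPM in DMSO and 20.4 and 19.1 CPM at 24 h. Before RA it was 4.09 and 4.99 CPM in DMSO and 7.53 and 9.81 CPM in dTAG-V1 cells, and after RA 25.6 and 27.6 CPM and 48.6 and 51.6 CPM. The sum of 4 fibroblast markers (Col1a1, Col1a2, Thy1 and Postn) after RA was 6.58 and 10.3 CPM in DMSO and 25.9 and 26.2 CPM in dTAG-V1 cells. The part of these shifts in the values of the ribosomal protein genes was not tested. Zfp143 RNA itself was higher after dTAG-V1, with 71.3 and 74.4 CPM in the DMSO and 162 and 165 CPM in the 2 h TT-seq libraries, and the degron acts on the protein.

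The sequences under the peaks are shown first, because the members are described below by whether they have a peak. Each stretch below is read from the GRCm38.p6 (mm10) genome, which is C57BL/6J and not 129/Ola, on the coding strand of the ribosomal protein gene. The first line is at the peak of highest enrichment, the next ones are at genes that fell within hours or by a large factor in RNA-seq, the Mrpl50 line holds the most complete motif at a gene that was not called in any comparison with DMSO, and the Mrps26 line is from a gene that fell and has none of the motif letters. Capitals mark the letters ACTACNNNT and CCCANNATG, which are the ends of the ZFP143 motif, and CCCAGCAG, each read on both strands.
Mrps25: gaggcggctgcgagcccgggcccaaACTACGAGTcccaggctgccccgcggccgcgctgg
Mrps22: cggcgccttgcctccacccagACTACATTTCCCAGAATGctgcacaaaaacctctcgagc
Mrpl42: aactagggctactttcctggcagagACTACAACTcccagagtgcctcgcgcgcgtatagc
Mrpl24: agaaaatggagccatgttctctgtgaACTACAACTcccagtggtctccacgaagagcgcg
Mrpl34: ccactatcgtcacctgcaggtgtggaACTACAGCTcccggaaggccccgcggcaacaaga
Mrpl54 at its start: ttttttaaagACTACATTTcccagaaggcc
Mrpl54 second peak: aacggcCTGCTGGGAAATGTAGTcctcgag
Mrpl50: gctccaACTACAACTCCCAACATGcccagg
Mrps26: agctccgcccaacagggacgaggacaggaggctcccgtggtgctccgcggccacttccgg

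The Mrps25 stretch is chr6:92184046-92184105 on the minus strand, 72 to 13 bp before the start. The Mrps22 stretch is chr9:98601690-98601749 on the minus strand, the Mrpl42 stretch is chr10:95501960-95502019 on the minus strand, the Mrpl24 stretch is chr3:87919381-87919440 on the plus strand and the Mrpl34 stretch is chr8:71464853-71464912 on the plus strand. All lie upstream of the start of their gene and outside annotated exons. The stretches of Mrpl54, chr10:81266974-81267003 and chr10:81268150-81268179 on the minus strand, lie within Apba3, whose transcripts run the other way, and that of Mrpl50, chr4:49521203-49521232 on the minus strand, lies within the first exon of Zfp189. The Mrps26 stretch is chr2:130563690-130563749 on the plus strand, around the peak summit, and it overlaps the first bases of Mrps26 and an exon of the antisense gene 4930473A02Rik. In Mrps22 and Mrpl50 both ends of the motif stand in a single run of letters, whereas Mrps25, Mrpl42, Mrpl24 and Mrpl34 have the first end followed by CCCA or CCCG and other letters. The second Mrpl54 peak holds the motif on the opposite strand.

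Motif letters were more frequent at ZFP143 peaks in general than in promoters. CCCANNATG stood in the 300 bp around 25.7% of the 3189 summits and in a promoter (250 bp before to 50 bp after a start) of 5.8% of 27025 RefSeq genes, and ACTACAANT in 15.5% and 1.7%. All promoter shares here count genes, with a match in any promoter of the gene. Of the promoters of members with a peak that RefSeq held, 4 of 20 had CCCANNATG and 4 of 20 ACTACAANT, against 1 of 49 and 0 of 49 for members without a peak. The looser ACTACNNNT, which contains every ACTACAANT and was chosen after the stretches had been read, stood in 7 of 20 and 3 of 49, at 37.5% of all summits and in 9.0% of all promoters. CCCAGCAG, added at the same time, stood in 1 of 20 and 2 of 49, at 8.4% of summits and in 4.4% of promoters. Letters of other promoter factors differed less between the classes of members: GCGCANGCG (NRF1) stood in 5 of 20 and 11 of 49, CCGGAAGT (ETS) in 5 of 20 and 7 of 49, and AANATGGCG (YY1) in 4 of 20 and 7 of 49, with 7.0%, 4.3% and 2.8% of all promoters and 8.3%, 5.5% and 4.9% of summits. A match describes these letters only, and CCCANNATG, ACTACAANT and ACTACNNNT can overlap in 1 site.

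Binding at the members was mostly at the start itself. A summit lay within 100 bp of an annotated start at 17 of the 22 members, and the peaks were 4.75-fold to 196-fold enriched over input, against a median of 20.8-fold over all peaks and a highest value of 345-fold. Mrps25 had the strongest member peak (196-fold), followed by Mrpl34 (134-fold), the single peak shared by Mrpl46 and Mrps11 (84.0-fold), and Mrpl48 and Mrpl50 (78.5-fold each). Mrpl46 and Mrps11, a large and a small subunit gene, are read in opposite directions from starts 30 bp apart. Mrpl54 had a peak at the promoter it shares with Apba3 and a further one inside Apba3, 23.7-fold at 2 bp and 45.9-fold at 1238 bp before its start. The member nearest to the limit of 2 kb inside was Mrps2, whose peak ended 1493 bp from a start and was 4.75-fold enriched, and the nearest outside were Mrpl58 at 2041 bp and Mrps5 at 2243 bp. A limit of 500 bp gave 21 members with a peak, a limit of 5 kb gave 25, and the more enriched part of the peak list gave 18. CTCF peaks lay within 2 kb of 21 members, 5 of which also had a ZFP143 peak.

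Nascent transcription of the members fell within 2 h of dTAG-V1 at 7 genes, all of them with a peak: Mrps25, Mrpl54, Mrps26, Mrps22, Mrpl10, Mrpl37 and Mrpl42. A gene was called in TT-seq at an adjusted p of 0.05 and a log2 fold change of 0.5 by the quasi-likelihood test of edgeR with Benjamini-Hochberg adjustment over all 17870 genes tested. The 7 lower calls were 8.97% of the 78 members, beside 2.43% of all genes tested, and 0 members were called higher by edgeR or by DESeq2, beside 0.168%. An unadjusted p under 0.05, in either direction, was found at 14 members. In these bulk samples, fewer cells of a type and less RNA per cell cannot be told apart. With edgeR, 7 of the 22 members with a peak (31.8%) and 0 of the 56 without a peak were called lower, and 4 of those 56 had an unadjusted p under 0.05. DESeq2 called 8 and 0, adding Mrpl46. Over all protein-coding genes, 17% of the 2183 tested with a peak and 0.174% of the 11477 tested without a peak were called lower. The large and small subunits did not stand apart in this count, with 4 of 49 and 3 of 29.

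Mrps25, a small subunit protein found only in mitochondrial ribosomes (gene at chr6:92169525-92184033, minus strand), had 27.2 and 35.7 CPM in the DMSO libraries and 3.82 and 2.83 CPM at 2 h, 2.88 and 3.39 CPM at 6 h and 2.56 and 2.74 CPM at 24 h. All 6 depleted libraries were below both controls, and those at 2 h held on average 10.6% of the DMSO level. The log2 fold change was −3.25 ± 0.25 (SE, 2 libraries a group) at 2 h with an edgeR adjusted p of 0.000628, −3.33 at 6 h and −3.57 at 24 h. Mrpl54, a large subunit protein without a bacterial counterpart (chr10:81264713-81266934, minus strand), had 12.0 and 8.38 CPM in DMSO and 1.20 and 2.23 CPM at 2 h, 1.01 and 1.74 CPM at 6 h and 2.66 and 1.98 CPM at 24 h. Its libraries did not overlap either, on counts of 110 to 116 in DMSO and 13 to 37 after depletion, with a log2 fold change of −2.54 ± 0.39 at 2 h (edgeR adjusted p = 0.0102), −2.88 at 6 h and −2.14 at 24 h.

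Mrps26, another small subunit protein particular to mitochondria (chr2:130563742-130568695, plus strand), had 9.41 and 8.15 CPM in DMSO, 2.87 and 2.77 CPM at 2 h, 3.20 and 3.64 CPM at 6 h and 2.66 and 3.12 CPM at 24 h, a fall that was in place at 2 h and of like size at each time (log2 fold change −1.63 ± 0.25, −1.36 and −1.59, edgeR adjusted p = 0.00951 at 2 h). Mrpl10, the counterpart of the bacterial protein on which the ribosomal stalk is built (chr11:97041560-97049213, plus strand), had 31.8 and 35.1 CPM in DMSO, 12.1 and 14.3 CPM at 2 h, 10.7 and 11.7 CPM at 6 h and 13 and 15.3 CPM at 24 h. It was lower in all depleted libraries than in both controls, by −1.34 ± 0.18 at 2 h on the log2 scale (edgeR adjusted p = 0.00552), −1.58 at 6 h and −1.24 at 24 h.

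Mrps22, a small subunit protein (chr9:98588730-98601660, minus strand), was the member whose nascent RNA moved most between the times. It had 26.1 and 27.2 CPM in DMSO, 7.41 and 10.2 CPM at 2 h, 11.3 and 12.6 CPM at 6 h and 16.9 and 18.7 CPM at 24 h, so that each later pair was higher than the pair before it and still below DMSO. Against DMSO it was called at 2 h (−1.59 ± 0.20, edgeR adjusted p = 0.00459) and 6 h (−1.15), but not at 24 h (−0.58 ± 0.20, adjusted p = 0.127), where a fit with the replicate number as a block did call it. The direct comparison of 24 h with 2 h gave 1.01 ± 0.20 and an edgeR adjusted p of 0.0845, which did not pass, while DESeq2, a fit without a filter on low counts and the block called it. In that comparison edgeR called 0 members lower, beside 0.056% of all genes, and 0 higher, beside 0.0336%, and 5 members had an unadjusted p under 0.05. DESeq2 called Mrps22 alone.

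Mrpl42, a large subunit protein, had the most nascent counts of the 8 members called in TT-seq, with 77.7 and 77.3 CPM in DMSO, 42.9 and 43.3 CPM at 2 h, 50.6 and 47.4 CPM at 6 h and 54.4 and 53.1 CPM at 24 h. Its libraries agreed closely, and the fall of −0.85 ± 0.11 at 2 h (edgeR adjusted p = 0.00534), −0.66 at 6 h and −0.53 at 24 h was called each time by edgeR and DESeq2, with the 24 h call lost with library size alone and without any 1 of the 4 libraries. Mrpl37, a large subunit protein, had 31.1 and 35.9 CPM in DMSO, 16.1 and 18.8 CPM at 2 h, 18.2 and 19.7 CPM at 6 h and 20.2 and 21.7 CPM at 24 h. It was called lower at each time, with −0.94 ± 0.16, −0.83 and −0.68 and edgeR adjusted p = 0.0182 at 2 h, and its 24 h call was lost under the same settings. Mrpl34, the counterpart of the small bacterial protein of the same number, was called only at 6 and 24 h, with 5.59 and 5.79 CPM in DMSO, 3.82 and 3.92 CPM at 2 h, 1.95 and 2.4 CPM at 6 h and 2.85 and 2.2 CPM at 24 h. The libraries of all 3 times were below both controls. Its change was −0.55 ± 0.26 at 2 h (edgeR adjusted p = 0.477), −1.39 ± 0.27 at 6 h (0.0307) and −1.18 at 24 h (0.0404), on 25 to 29 counts a library at the last times, and DESeq2 gave adjusted p of 0.0633 and 0.114.

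**Figure D1:**
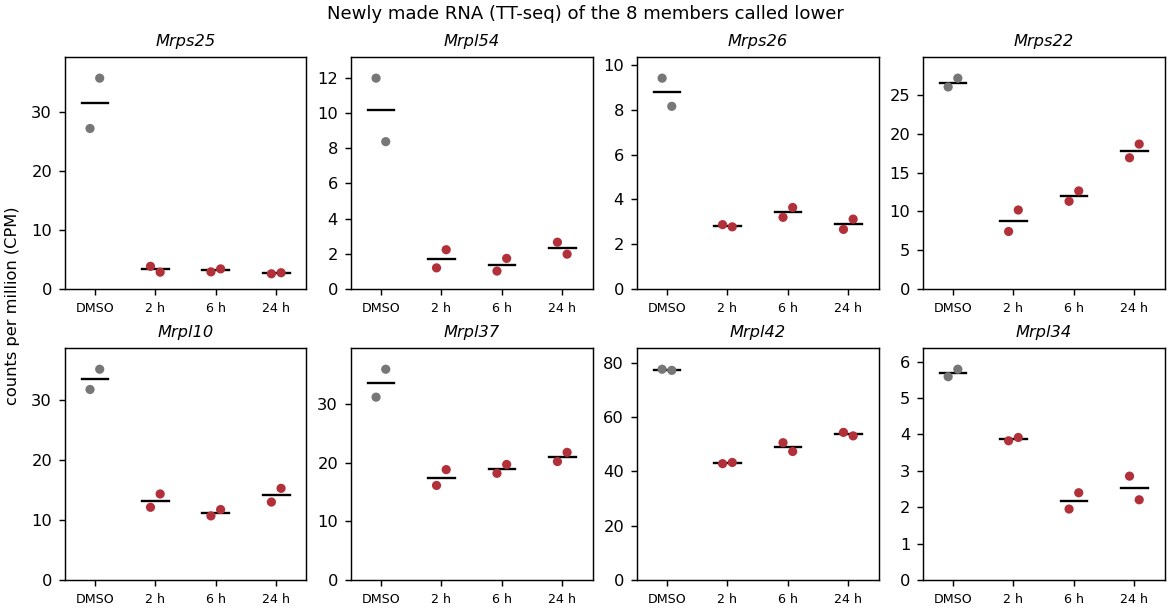
Nascent RNA of the 8 members called lower in TT-seq, in CPM on a linear axis from 0, in DMSO (grey) and dTAG-V1 at 2, 6 and 24 h (red), with a point for each of 2 libraries and a bar at their mean. Mrps25 stayed near 3 CPM from 2 h on, Mrps22 lay between 7.41 and 10.2 CPM at 2 h and between 16.9 and 18.7 CPM at 24 h, and Mrpl34 was lowest at 6 h.

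At 6 h the members called lower were 8 of 78, beside 2.83% of all genes tested, and at 24 h 7 of 78, beside 4.09%. No member was called higher by edgeR, beside 0.397% at 6 h and 2.02% at 24 h, or by DESeq2, and 22 and 16 members had an unadjusted p under 0.05 in either direction. All of these calls were again at members with a peak (8 and 7 of 22), and 0 of 56 members without a peak were called by either tool, with 10 and 5 at an unadjusted p under 0.05. That pattern did not hold under every setting, since edgeR without a filter on low counts called Mrps12, which has no peak, at 24 h. The replicate block described with the processing called 14 members lower at 6 h and 11 at 24 h, of which 3 and 2 had no peak. Comparisons at 2, 6 and 24 h share the DMSO libraries, so their values are set side by side and are not independent. With 2 libraries a group the counts leaned on single libraries: the 7 calls at 2 h became 1 without the first and 2 without the second 2 h library, the 8 at 6 h became 1 without the first 6 h library and 3 without any other, and the 7 at 24 h became 3 or 4 without any of the 4. Mrps25 was called in every one of these runs, and Mrpl10 in every one at 24 h.

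Below the threshold, the members as a whole lay slightly under the other genes in nascent RNA. At 2 h the log2 fold change was negative at 67 of 78 members, and both depleted libraries were below both DMSO libraries at 37 of 78 (47.4%), beside 20.6% of all genes. The median was −0.49 for members with a peak, −0.22 for those without and 0.01 for all genes tested, and 15 of 22 and 22 of 56 had both depleted libraries below both controls. The medians of the same classes were −0.52 and −0.26 at 6 h and −0.40 and −0.12 at 24 h, beside 0.01 for all genes each time. The cytosolic ribosomal protein genes had a median of −0.24 at 2 h, −0.50 at 6 h and −0.43 at 24 h, with 3, 21 and 20 of 76 called lower.

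Most members with a peak were not called in TT-seq. Mrpl46, a large subunit protein, had 28.4 and 30.3 CPM in DMSO and 13.7 and 19.3 CPM at 2 h (−0.83 ± 0.22, edgeR adjusted p = 0.118), and its partner at the shared peak, Mrps11, had 23.9 and 26.3 CPM and 17.5 and 19.9 CPM (−0.42 ± 0.19, adjusted p = 0.443). In both genes the 2 h libraries were below both controls. DESeq2, a fit without a filter on low counts and the replicate block each called Mrpl46 lower at 2 and 6 h. The members with a peak nearest to no change at 2 h were Mrpl17 (0.07), Mrpl48 (0.12) and Mrpl11 (−0.15), whose libraries overlapped. Mrpl50, with the complete motif, had 35.2 and 43.1 CPM in DMSO and 30.6 and 36.3 CPM at 2 h, which overlap (−0.23 ± 0.16). Among members without a peak the lowest changes were at Mrpl14 (−0.57 ± 0.21, edgeR adjusted p = 0.351), Mrpl41 (−0.56) and Mrps7 (−0.52), and the highest at Mrps36 (0.29), Mrps28 (0.20) and Mrpl23 (0.15), none past the threshold. The protein of Mrps36 is now known as a part of the 2-oxoglutarate dehydrogenase complex in spite of its gene symbol.

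Peak heights of the called and the other bound members overlapped. The 7 members called at 2 h had enrichments of 13.8-fold to 196-fold with a median of 45.2-fold, and the 15 other members with a peak 4.75-fold to 134-fold with a median of 53.8-fold. The 15 include Mrpl34 (134-fold), called in TT-seq at 6 and 24 h, and Mrpl24, Mrpl18 and Mrpl11, called in RNA-seq. The median distance from the nearest summit to a start was 22 bp for the called members and 80 bp for the others, with 7 of 7 and 10 of 15 within 100 bp. These are descriptions without a test.

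**Figure D2:**
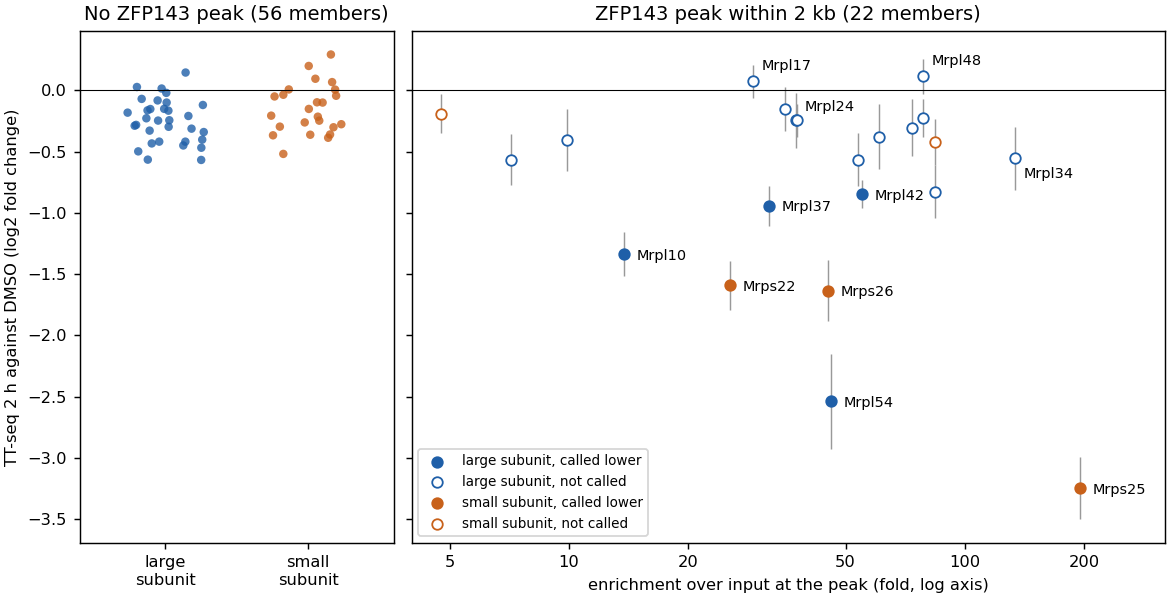
Log2 fold change of nascent RNA at 2 h against DMSO, for 56 members without a peak (left, by subunit) and 22 members with a peak (right, against the fold enrichment of the strongest peak on a log axis, bars are SE). Filled points on the right are the 7 members called lower, which span 13.8-fold to 196-fold enrichment, and no member without a peak was below −0.57.

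Several bound members share their promoter with a gene on the other strand, and the partners did not always move together. Tcp1, a subunit of the cytosolic chaperonin whose start is 16 bp from that of Mrpl18, had 120.0 and 136.0 CPM of nascent RNA in DMSO and 58.2 and 71.9 CPM at 2 h (−0.97 ± 0.15, edgeR adjusted p = 0.0092), whereas Mrpl18 changed by −0.31 ± 0.23 (adjusted p = 0.68). Cyb5rl, 120 bp from Mrpl37, fell with it, by −1.61 ± 0.31 (adjusted p = 0.0275). Apba3, an adaptor protein gene 26 bp from Mrpl54, went the other way in its libraries, with 12.3 and 8.08 CPM in DMSO and 19.5 and 20.9 CPM at 2 h. The change of 1.00 ± 0.22 had an edgeR adjusted p of 0.0545 at 2 h and was called in TT-seq at 24 h (1.03). In RNA-seq at 24 h Apba3 changed by 0.20 and was not called. Zfp189, a zinc finger gene 83 bp from Mrpl50, had 6.52 and 9.30 CPM in DMSO and 12.9 and 18.3 CPM at 2 h (0.97 ± 0.25, adjusted p = 0.11), and passed in RNA-seq at 48 h (0.93) and 72 h (0.86). Abhd8, beside Mrpl34, changed by −0.25 at 2 h. The differences between partners were not tested. Lrrc46 beside Mrpl10 and 4930473A02Rik, antisense to Mrps26, had too few counts for the test in TT-seq.

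Steady-state mRNA fell at 5 members after 24 h and at 9 after 48 and 72 h. In RNA-seq a gene was called when its fold change exceeded 1.5 by edgeR's test against a fold threshold (glmTreat) at an adjusted p of 0.01 over the 13925 genes tested, which include 76 members. The 5 members called lower at 24 h were Mrpl24, Mrpl54, Mrpl34, Mrps26 and Mrpl42, which is 6.58% beside 3.41% of all genes. At 48 h 9 were lower (11.8%, beside 7.71%) and at 72 h 9 (11.8%, beside 12%), so the share of called members was no longer above the share of all genes at 72 h. No member was called higher, beside 2.32%, 10.5% and 13.7% of all genes, by edgeR or by DESeq2, and 6, 9 and 14 members had an unadjusted glmTreat p under 0.05 in either direction. By binding, 5, 7 and 7 of 21 tested members with a peak were lower at 24, 48 and 72 h and 0, 2 and 2 of 55 without a peak. Of those 55, 0, 2 and 4 had an unadjusted p under 0.05. DESeq2 called 4, 6 and 6 members with a peak and 0, 0 and 1 without. These comparisons share the DMSO libraries.

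Mrps25 lost nearly all of its mRNA. It had 42.7 and 46.9 CPM in DMSO (465 and 658 counts), 0.646 and 0.73 CPM at 24 h (8 counts in each library), 0.8 and 0.356 CPM at 48 h and 0.278 and 0.546 CPM at 72 h. The depleted libraries held 1.53%, 1.29% and 0.919% of the DMSO level on average. Because only the DMSO libraries exceeded 10 counts, the gene failed the filter (over 10 counts in at least 4 of 8 libraries) and is not in the counts above, and without a filter its log2 fold change was −6.03 at 24 h with an edgeR adjusted p of 7.15e-147, −6.27 at 48 h and −6.70 at 72 h. Mrpl53 was the other member not tested, with 0 counts in every RNA-seq library, and it lies on the same strand within the gene model Gm42688. The part of that overlap in its count was not tested.

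Mrpl24, a large subunit protein with a bacterial counterpart (chr3:87919506-87923672, plus strand), had the largest fall among the tested members in RNA-seq at 24 h and was not called in TT-seq. Its mRNA had 103 and 97.4 CPM in DMSO, 10.3 and 11.2 CPM at 24 h, 15.6 and 14.0 CPM at 48 h and 12.8 and 13.4 CPM at 72 h, which are log2 fold changes of −3.22 ± 0.09 (edgeR adjusted p = 5.83e-20), −2.75 and −2.93. Its nascent RNA had 20.2 and 20.04 CPM in DMSO, 18.9 and 15.1 CPM at 2 h, 18.5 and 13.6 CPM at 6 h and 14.0 and 10.3 CPM at 24 h, with changes of −0.24 ± 0.23 (adjusted p = 0.743), −0.32 and −0.73 (adjusted p = 0.109). All 6 depleted TT-seq libraries were below both controls, and none of the changes passed, but a fit without a filter on low counts and a fit with the replicate block each called the gene lower at 24 h. The 3′ part of Mrpl24 overlaps Rrnad1, which is read from the other strand, and the strand setting of the RNA-seq counts is not given, so reads of such partners cannot be told apart there, as at Mrps26 and its antisense gene. TT-seq counts take in introns while RNA-seq counts mostly exons. The part of either in the gap between the assays was not tested.

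Mrpl54 mRNA had 22.8 and 21.7 CPM in DMSO and 3.71 and 3.83 CPM at 24 h, 3.84 and 3.56 CPM at 48 h and 4.26 and 5.05 CPM at 72 h, a loss like that of its nascent RNA (−2.55 ± 0.15, −2.58 and −2.24). Mrps26 mRNA had 32.5 and 34.7 CPM in DMSO and between 9.35 and 13.2 CPM in the 6 depleted libraries (−1.42, −1.64 and −1.54). Both had fallen by 24 h. Mrpl34 had 56.1 and 56 CPM in DMSO, 17 and 16.6 CPM at 24 h, 10.2 and 11.6 CPM at 48 h and 11.7 and 10.1 CPM at 72 h (−1.74, −2.36 and −2.38). Mrpl42 had 128 CPM in each DMSO library, 74.2 and 76.4 CPM at 24 h, 64.7 and 68.3 CPM at 48 h and 57.3 and 54.9 CPM at 72 h (−0.77 with an edgeR adjusted p of 0.00468, −0.95 and −1.19), and its 24 h call was lost with DESeq2 and with library size alone. No library of the depleted groups reached a control in any of these genes.

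**Figure D3:**
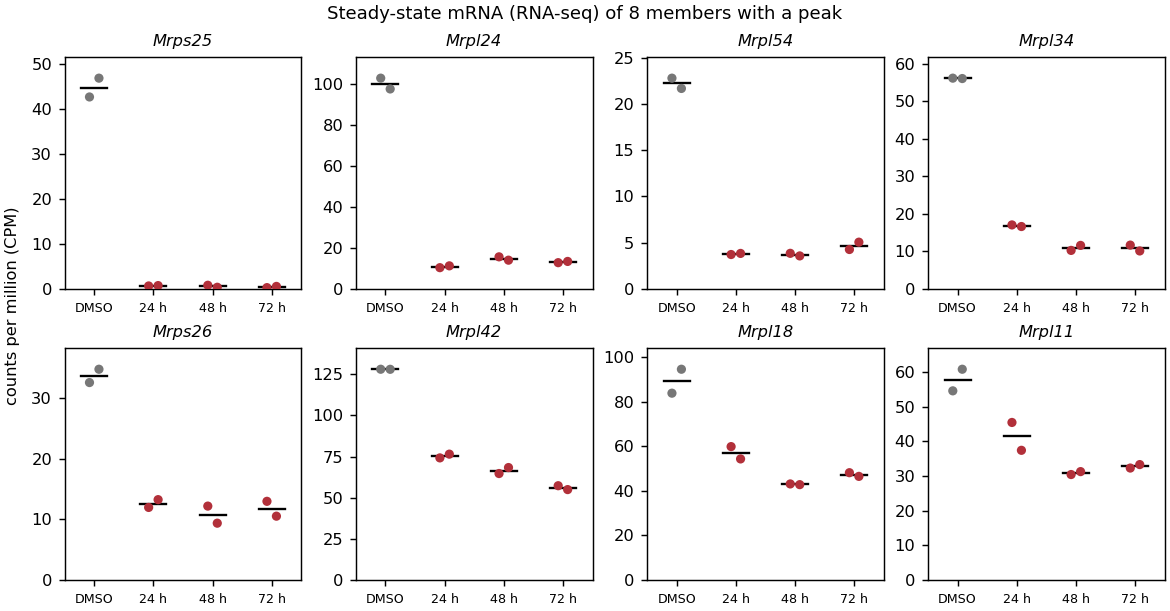
Steady-state mRNA of 8 members with a peak, in CPM on a linear axis from 0, in DMSO (grey) and dTAG-V1 at 24, 48 and 72 h (red), with a point for each of 2 libraries and a bar at their mean. Mrps25 was under 1 CPM in all depleted libraries, Mrpl24 fell from about 100.4 CPM to between 10.3 and 15.6 CPM, and Mrpl42 and Mrpl34 were lower at 48 h than at 24 h.

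The members called only from 48 h on were Mrpl18, Mrpl11, Mrps12 and Mrps21. Mrpl18, the counterpart of a bacterial protein that binds 5S rRNA, had 83.8 and 94.5 CPM in DMSO, 59.8 and 54.3 CPM at 24 h, 43.1 and 42.7 CPM at 48 h and 48.1 and 46.4 CPM at 72 h (−0.65, −1.06 and −0.92). Mrpl11, a protein at the base of the stalk, had 54.6 and 60.8 CPM in DMSO, 45.4 and 37.4 CPM at 24 h, and 30.4 to 33.3 CPM at 48 and 72 h (−0.48, −0.91 and −0.82). In both, the depleted libraries were below both controls from 24 h on. Mrps12, a protein of the decoding centre, and Mrps21 had no peak, and changed by −0.95 and −1.14 at 48 h and by −1.03 and −0.99 at 72 h. Mrps12 had 54.7 and 48.4 CPM in DMSO and 24.3 and 25.9 CPM at 72 h, and Mrps21 had 20.9 and 24.9 CPM and 12.2 and 11.2 CPM. DESeq2 lost the calls of Mrpl11 and Mrps21 at both times and of Mrps12 at 48 h, and library size alone lost Mrpl11 at both times, Mrps12 at 48 h, and Mrpl18 and Mrps21 at 72 h.

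Mrpl10, Mrps22 and Mrpl37, called in TT-seq at 2 h, were not called in the RNA-seq time course. Mrpl10 mRNA was 83.4 and 88.5 CPM in DMSO and 55.5 and 54.3 CPM at 24 h (−0.65 ± 0.06), below both controls. It did not pass the test for a change beyond 1.5-fold (edgeR glmTreat adjusted p = 0.424), whereas the RA set before RA called it lower (−1.10). Mrps22 mRNA went from 36.7 and 38.5 CPM to 22.4 and 22.5 CPM at 24 h and was 26.7 and 29.4 CPM at 48 h and 31.5 and 31.6 CPM at 72 h, with −0.74, −0.43 and −0.26 and no call. Its mRNA was lowest at 24 h, whereas its nascent RNA was lowest at 2 h. The change from 24 to 72 h (0.49) was not called. Mrpl37 mRNA was 80.4 and 83.7 CPM in DMSO and 64.2 and 69.7 CPM at 24 h (−0.30 ± 0.06). TT-seq and RNA-seq at 24 h come from different libraries. Of the 7 members called in TT-seq and the 5 called in RNA-seq at 24 h, 4 were the same (57.1% and 80%), Mrpl34, Mrpl42, Mrpl54 and Mrps26. Mrps25, among the 7 called in TT-seq, could not be shared because the filter removed it from RNA-seq, where its unfiltered change was −6.03. The RNA-seq rule was also the stricter of the rules. Over 76 members the log2 fold changes had a Pearson r of 0.74 and a Spearman rho of 0.62, a description across genes that share their libraries.

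Across all members the median mRNA change was near 0 at 24 h and lower later. It was −0.36, −0.55 and −0.59 for members with a peak and 0.07, −0.07 and −0.16 for those without at 24, 48 and 72 h, beside 0.02, 0.01 and 0.02 for all genes tested. The summed level of the 78 members was 4336 and 4379 CPM in DMSO, 4059 and 4019 CPM at 24 h, 3700 and 3651 CPM at 48 h and 3416 and 3420 CPM at 72 h, with no overlap between neighbouring times. With library size alone the sums were 3900 and 4020 CPM in DMSO, 4032 and 4017 CPM at 24 h, 3856 and 3820 CPM at 48 h and 3608 and 3624 CPM at 72 h. The lower sum of all members at 24 h was not seen with that scaling, and both libraries at 48 and 72 h were below both controls. By binding, members with a peak summed to 1463 and 1494 CPM in DMSO and 1046.5 and 1046.2 CPM at 24 h. Members without a peak summed to 2873 and 2885 CPM, then 3013 and 2973 CPM. With library size alone, those with a peak had 1316 and 1371 CPM, then 1040 and 1046 CPM. Those without had 2583.7 and 2648.5 CPM, then 2993 and 2971 CPM. Between 72 h and 24 h, Mrps24, a small subunit protein without a peak, was the single member called (5 members had an unadjusted p under 0.05), with 68.4 and 71.2 CPM at 24 h and 38.2 and 35.5 CPM at 72 h (−0.93 ± 0.08, edgeR adjusted p = 0.000304). That is 1 of 76 members lower beside 6.6% of all genes and 0 higher beside 7.53%, and the call was lost without the second 72 h library (0 called) and with DESeq2 (0 called).

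Levels in control cells overlapped widely between members with a peak and without. Per kb of exon, DMSO mRNA ran from 0 at Mrpl53 to 92.4 CPM at Mrpl34, with a median of 19.8 CPM per kb for members with a peak and 18.8 for those without in the time course, and 28.6 and 21.1 in the DMSO cells of the RA set before RA. Per kb of gene, nascent RNA ran from 0.555 CPM at Mrpl48 to 15.8 CPM at Mrps2, with medians of 3.65 and 3.19.

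The mitochondrial ribosome has proteins whose genes carry other symbols, and 5 of these were examined: Dap3, Ptcd3, Chchd1, Aurkaip1 and Gadd45gip1. None was called in TT-seq at 2, 6 or 24 h, where their 2 h changes lay between −0.57 and −0.24. In RNA-seq Chchd1, a small subunit protein, had 34.4 and 37.0 CPM in DMSO, 17.7 and 16.7 CPM at 24 h, 14.9 and 16.1 CPM at 48 h and 23.2 and 20.5 CPM at 72 h. It was called at 24 h (−1.06 ± 0.10, edgeR adjusted p = 9.42e-05) and 48 h (−1.21), not at 72 h (−0.72). Dap3, a GTP-binding protein of the small subunit, had 118.8 and 118.5 CPM in DMSO and 68.9 and 71.5 CPM at 72 h, and was called at 48 h (−0.86) and 72 h (−0.75). Of 26 assembly factors of the particle, 1, 1 and 0 were lower in TT-seq at 2, 6 and 24 h, which was Eral1, a chaperone of the small subunit rRNA (−1.15 and −1.33), and 0, 2 and 3 in RNA-seq at 24, 48 and 72 h. Those were Grsf1, an RNA-binding protein of mitochondrial RNA granules, Tfb1m, which methylates the small subunit rRNA (−1.75 at 72 h), and Mtg1, a GTPase of large subunit assembly (−1.38 at 72 h). The rRNA mt-Rnr1 was called lower in TT-seq at 24 h (−0.72) and mt-Rnr2 was not (−0.60), while neither was called in RNA-seq, whose libraries select polyadenylated RNA.

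Nuclear genes for subunits of the respiratory chain and the ATP synthase had 8, 11 and 10 of 81 tested called lower in TT-seq at 2, 6 and 24 h and 9, 17 and 19 of 81 in RNA-seq at 24, 48 and 72 h, where 1 was called higher each time. The shares of all genes called lower were 2.43%, 2.83% and 4.09% in TT-seq. Of the 76 cytosolic ribosomal protein genes, 0, 4 and 27 were called lower in RNA-seq at 24, 48 and 72 h, beside 5, 9 and 9 of the 76 tested members and 3.41%, 7.71% and 12% of all genes. The lists have unequal sizes and levels, and differences between them were not tested.

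Before RA, the separate set of libraries repeated the 24 h comparison. Of 77 tested members, 7 were called lower by glmTreat (9.09%, beside 3.66% of 15915 genes) and 0 higher, beside 2.74%, with 8 at an unadjusted p under 0.05, and all 7 had a peak: Mrps25, Mrpl24, Mrpl54, Mrpl34, Mrps26, Mrpl10 and Mrpl42. DESeq2 called the same 7 and none higher. Of the 55 tested members without a peak 0 were called by either tool, and 0 had a glmTreat p under 0.05. Here Mrps25 passed the filter, with 62.4 and 70.8 CPM in DMSO and 1.45 and 1.67 CPM in dTAG-V1 cells (−5.39 ± 0.14, edgeR adjusted p = 9.09e-17), and Mrpl24 had 117 and 123 CPM and 17.8 and 16.7 CPM (−2.80 ± 0.08). The 5 members called in the time course at 24 h were all among these 7 (100% and 71.4% of the lists), and across 76 members the changes in the separate sets had a Pearson r of 0.95 and a Spearman rho of 0.76.

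**Figure D4:**
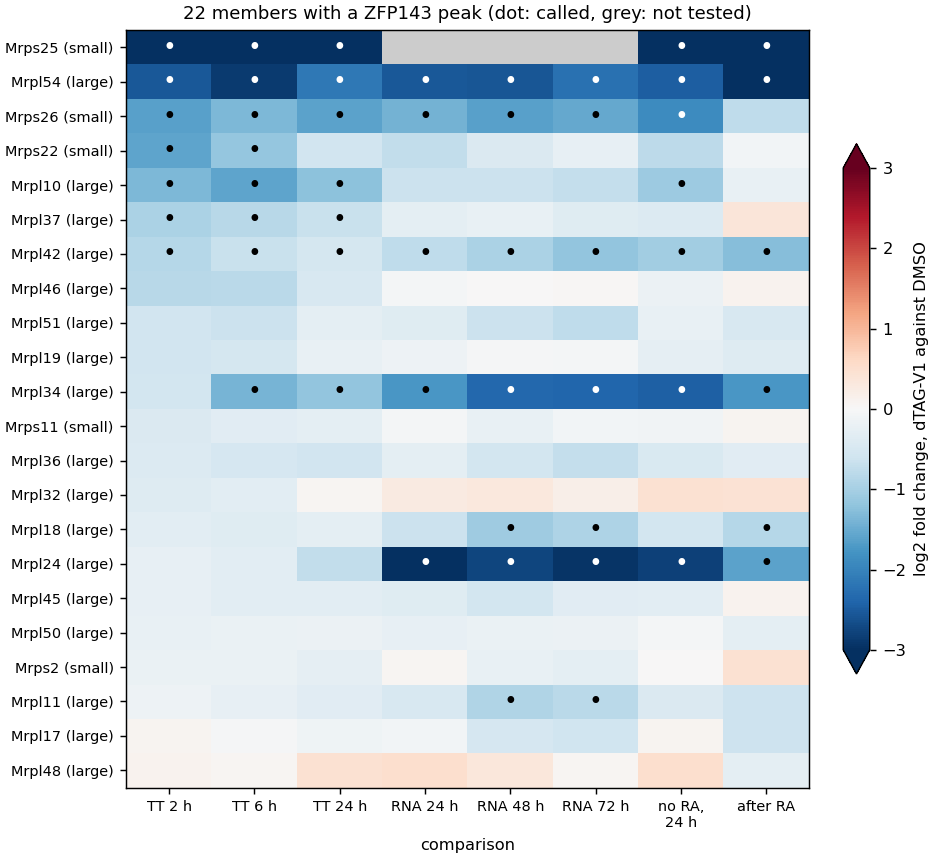
Log2 fold change of dTAG-V1 against DMSO for the 22 members with a peak (rows, ordered by the 2 h change) in 8 comparisons (columns: TT-seq at 2, 6 and 24 h, RNA-seq at 24, 48 and 72 h, and the RA set before and after RA), with blue lower, red higher, colours capped at 3, dots on called values and grey where Mrps25 was not tested. Mrps25, Mrpl54, Mrps26, Mrpl42 and Mrpl34 were dark or dotted in most columns, Mrpl24 in the steady-state mRNA columns (time course and RA set) and not in those of TT-seq, and Mrps22 and Mrpl37 in TT-seq alone.

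After RA, 7 members were again called lower in dTAG-V1 against DMSO cells (9.09%, beside 7.36%) and 0 higher, beside 9.1%, or 0 with DESeq2, and 9 had an unadjusted glmTreat p under 0.05. They were Mrps25, Mrpl54, Mrpl34, Mrpl24, Mrpl42, Mrpl18 and Mrps21, 6 with a peak and Mrps21 without. The call of Mrpl18 was lost with DESeq2 and with library size alone. With library size as the sole scaling the split was 6 lower and 1 higher, the latter at Mrpl1. Mrps25 had 47.1 and 49.5 CPM in DMSO cells after RA and 2.67 and 3.12 CPM in dTAG-V1 cells (−4.05 ± 0.13), and Mrpl54 had 34.2 and 37.7 CPM and 5.0 and 3.91 CPM (−3.01 ± 0.14). Mrps21 had 15.5 and 19.99 CPM and 7.63 and 6.57 CPM (−1.31 ± 0.14, edgeR adjusted p = 4.72e-05). Chchd1 (−1.38) and the rRNAs mt-Rnr1 (−1.38) and mt-Rnr2 (−1.15) were also called lower after RA, and so were 44 of 76 cytosolic ribosomal protein genes.

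After the RA step many members were lower than before it, in control cells as in depleted ones. Of 77 tested members, 28 were called lower (36.4%, beside 18.1% of all genes) and 2 higher (beside 25.8%) in DMSO cells, and 32 lower (41.6%, beside 18.5%) and 1 higher (beside 25%) in dTAG-V1 cells. The summed level of the members was 5152 and 5360 CPM in DMSO cells and 3315 and 3348 CPM after RA, and 4786 and 4605 CPM in dTAG-V1 cells and 2886 and 2718 CPM after RA. The size of these counts rests on the scaling. With library size alone, which moved the median of all genes by 0.13 to 0.39 on the log2 scale in this set, 10 were lower and 3 higher in DMSO cells and 9 lower and 3 higher in dTAG-V1 cells. The median change was −0.61 in DMSO and −0.70 in dTAG-V1 cells, beside 0.03 and 0.00 for all genes. In DMSO cells, 0 of 76 cytosolic ribosomal protein genes were called lower after RA and 13 of 26 assembly factors of the mitochondrial ribosome were.

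In DMSO cells the largest falls were at Mrps18b, a small subunit protein, with 75.2 and 78.1 CPM before and 24.5 and 22.2 CPM after RA (−1.71 ± 0.09, edgeR adjusted p = 3.34e-11), and at Mrps2, with 165 and 173 CPM and 62.8 and 65.8 CPM (−1.40 ± 0.07). The rises were at Mrpl23, a protein at the exit of the nascent chain tunnel, with 3.94 and 4.36 CPM and 10.3 and 10.9 CPM (1.35 ± 0.17, edgeR adjusted p = 4.79e-05), and at Mrpl57, with 22 and 18.3 CPM and 37.0 and 35.2 CPM (0.84 ± 0.10, adjusted p = 0.00609), a call lost with DESeq2 and without a filter on low counts. No library of these 4 genes overlapped between the groups. In dTAG-V1 cells the largest falls were at Mrpl12, the stalk protein, with 151 and 141 CPM before and 45.5 and 42.2 CPM after RA (−1.74 ± 0.07), and at Mrpl55, with 25.3 and 25.4 CPM and 9.86 and 8.85 CPM (−1.44 ± 0.11). Mrpl24 was the single member called higher after RA there, from 17.8 and 16.7 CPM to 34.3 and 32.6 CPM (0.96 ± 0.09, edgeR adjusted p = 9.39e-05), still below the 100.5 and 103 CPM of DMSO cells after RA.

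The response to RA differed between DMSO and dTAG-V1 cells at 21 members by the interaction term of the edgeR quasi-likelihood fit (adjusted p of 0.05 and log2 difference of 0.5). It was more negative in dTAG-V1 cells at 12 (15.6%, beside 18% of all genes) and more positive at 9 (11.7%, beside 13.7%), so neither share was above that of all genes. With DESeq2 or with library size alone the split was 8 and 10, with the size factors of DESeq2 in edgeR it was 9 and 10, and the 12 became 7 without the second library of dTAG-V1 cells after RA. Of the members with a peak 3 were more negative and 7 more positive, and of those without 9 and 2. All protein-coding genes with a peak showed 9.73% and 26.7%, and those without 19.5% and 12.8%.

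The most positive differences were at Mrps25 and Mrpl24, with a peak, and the most negative at Mrps33 and Mrpl57, without. Mrps25 rose in dTAG-V1 cells from 1.45 and 1.67 CPM to 2.67 and 3.12 CPM while it went from 62.4 and 70.8 CPM to 47.1 and 49.5 CPM in DMSO cells, an interaction of 1.34 ± 0.23 (edgeR adjusted p = 8.18e-05) between changes of which neither passed on its own, though under the stricter rule of a 1.5-fold threshold at 0.01. The interaction of Mrpl24 was 1.20 ± 0.11 (adjusted p = 4.74e-08). Mrps33, a small subunit protein, had 5.51 and 6.08 CPM in DMSO cells and 7.15 and 8.66 CPM after RA, and 7.01 and 6.54 CPM and then 5.30 and 4.52 CPM in dTAG-V1 cells (−0.90 ± 0.24, edgeR adjusted p = 0.00479). Mrpl57 was higher after RA in DMSO cells but had 27.5 and 25.8 CPM before and 26 and 27.2 CPM after it in dTAG-V1 cells (−0.84 ± 0.14, adjusted p = 8.44e-05). The interactions of Mrps26 (1.12) and Mrpl10 (0.87) were at genes lower after RA in DMSO cells (−0.88 and −0.99) and not called in dTAG-V1 cells. Mrpl10 had 120.4 and 129.8 CPM in DMSO cells, 62.7 and 63.3 CPM after RA, and 53.6 to 58.9 CPM in the 4 dTAG-V1 libraries.

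**Figure D5:**
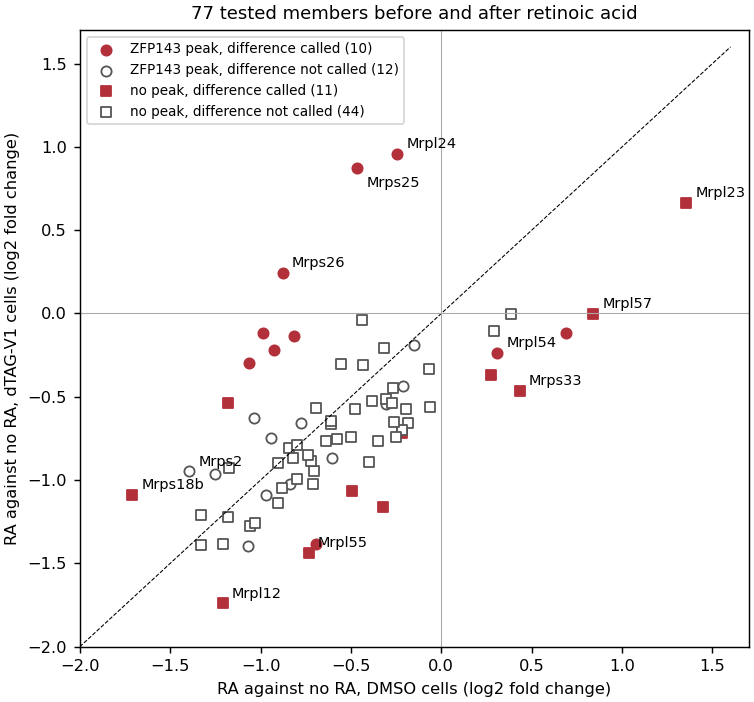
Log2 fold change after RA in DMSO cells (x axis) against that in dTAG-V1 cells (y axis) for 77 tested members, circles with and squares without a ZFP143 peak, red where the difference was called, and a dashed line of equal change. Most members lie below 0 on both axes, 7 of the 10 red circles lie above the dashed line (Mrpl24, Mrps25 and Mrps26 farthest) and 9 of the 11 red squares lie below it.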

How the data were processed

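TT-seq, RNA-seq and RA tables held raw read counts per gene as deposited by the authors, 8 libraries each and 2 per group, with no normalization. Per the labels and the methods, reads were aligned to mm10 with STAR. TT-seq reads were split by strand, stripped of duplicates and counted over whole genes with htseq-count. RNA-seq reads were counted by STAR with GENCODE annotation, and the strand setting of that count is not given in the sources used here. ZFP143 peaks were 1 list called by the authors with MACS2 against input, with a fold enrichment (a ratio) and a −log10 q-value per peak as deposited. Of the CTCF peak list only positions were used. The 4C files were not used here.

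Genes with over 10 counts in at least 4 of 8 libraries were tested with edgeR 4.0.16 (R 4.3.3, TMM scaling, quasi-likelihood fit with all 4 groups of a table). TT-seq and interaction calls needed an adjusted p of 0.05 and a log2 fold change of 0.5, and RNA-seq calls glmTreat past 1.5-fold at 0.01. The filter and the TT-seq and RNA-seq thresholds follow the study, with edgeR in place of DESeq2, and the looser interaction rule was chosen here. The p-values were adjusted over all genes tested. The common biological coefficient of variation was 17.2% in TT-seq, 3.65% in RNA-seq and 5.92% in the RA set. No libraries held identical values. CPM are scaled by TMM. The fitting code was tested on simulated data. DESeq2 1.42.0, other scalings, no filter, a replicate block and leaving out each library were tried as alternatives. The study's methods describe the 2 libraries of a group as biological replicates, but the labels do not tie them to separate clones or passages. The p-values rest on a spread estimated over all 4 groups of a table, and they do not cover differences between clones.

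A member counted as bound when a peak overlapped the 2 kb around a transcript start of GENCODE vM21. RefSeq promoters (GRCm38.p6) matched 69 of 78 members, whose promoter letters were identical to the genome used. The members and gene lists were chosen with earlier results of these data known. Named members were those called in TT-seq, the 5 of highest enrichment, the 3 bound members nearest no change at 2 h, the 3 lowest and 3 highest unbound members at 2 h, and the 2 largest called falls and rises of each RNA-seq comparison. Mrpl18, Mrps12, Mrps21, Mrps24, Mrpl53, Mrpl1 and the assembly factors named were chosen after their values were seen.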

Additional observations from a re-analysis of the deposited data

Results flagged for a closer look

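At 4 members the response to RA differed between DMSO and dTAG-V1 cells by the interaction term of the edgeR fit and was among the 2 most positive or 2 most negative called differences. The log2 difference was −0.90 at Mrps33, −0.84 at Mrpl57, 1.34 at Mrps25 and 1.20 at Mrpl24. Mrps25 and Mrpl24 had dTAG-V1 effects of −5.39 and −2.80 before and −4.05 and −1.60 after RA, so both stayed low in depleted cells. Mrps24 changed by −0.93 between 24 and 72 h of dTAG-V1 in RNA-seq, while it differed from DMSO by 0.20 at 24 h and by −0.72 at 72 h, neither of which was called. Groups of 2 libraries allow no search for single outlying samples.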

How the results depend on the processing

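Counts of called members were recomputed under other settings, and 221 of 248 values stayed within 1.5 times the reported count. The 248 include reported counts of 0, where another 0 counted as within that limit. With 2 libraries a group, leaving out 1 library assumes that the lone one varies like the other groups. The TT-seq count at 2 h (7) then ranged from 1 (without the first 2 h library) or 2 (without the second) to 6, that at 6 h (8) from 1 to 3, and that at 24 h (7) from 3 to 4. The Mrps24 call ranged from 0 (without the second 72 h library) to 1, the rises after RA in DMSO cells from 1 (without the second DMSO library or the first DMSO library after RA) to 2, and the 12 negative interactions from 7 (without the second library of dTAG-V1 cells after RA) to 14. Library size alone gave 4 at 24 h in TT-seq, 1 member higher after RA, 10 lower after RA in DMSO cells, and 9 lower and 3 higher in dTAG-V1 cells. It moved the median of all genes by −0.02 to 0.06 in TT-seq, 0.09 to 0.22 in RNA-seq and 0.13 to 0.39 in the RA set on the log2 scale. DESeq2 and no filter each gave 1 member (Mrps22) higher at 24 h than at 2 h and 1 rise (Mrpl23, not Mrpl57) after RA in DMSO cells, and DESeq2 gave 0 for 72 h against 24 h. The labels number the replicates 1 and 2 in each group but do not say that a number marks a shared batch, and deviations of equal numbers correlated by 0.193 to 0.631 in TT-seq, −0.0419 to 0.0621 in RNA-seq and −0.0986 to 0.125 in the RA set. The replicate block moved the TT-seq counts to 9 at 2 h, 14 at 6 h and 11 at 24 h, the rises from 2 to 24 h to 1, and no count in the other tables. It called members without a peak, Mrpl12, Mrpl14 and Mrps7 at 6 h and Mrpl12 and Mrps12 at 24 h, and it called Mrpl24 and Mrps22 lower at 24 h. Over 99 values of single members, 464 left-out runs gave 381 with the same call, 80 that lost it and 3 moved, and 495 other settings gave 459 and 36, with no reversal in either. The causes were not tested. Counts were low at Mrpl54, Mrpl34 and Mrps26 in TT-seq, and at Mrps25 in depleted cells.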
